A study of Mus musculus with 212 samples.

Results

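Mesp1, Flk-1 and Pdgfra are genes of the early cardiac mesoderm, chosen by name, and each had 1 TaqMan assay among the 42 assays (33 genes) that were read by microfluidic quantitative PCR in single mouse cells. All 3 assays were present in each of the 7 tables, which held 200 cells, 192 of them distinct. The groups are those named by the tables and by the cell names within them. Cells of embryonic stem (ES) cell cultures carried the names D5, D6, D7 and D8 (6 cells each) and D23 and D29 (10 each). Embryo cells carried the names E7.5, E8.5, E9.5 and E10.5 (6 each), and a separate E10.5 table held 72 cells. Atrial and ventricular cells came from neonatal (5 each) and adult hearts (10 each). The reference cells were called CPC, CM, SMC, FB, EDC and ES (5 each). The labels give no strain, sex, genotype, animal, culture or sorting gate, and they name no treatment.

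The sample titles contradict the tables for 3 groups. Titles call the cells of the D5-D8 table embryonic and those of the E7.5-E10.5 table ES-derived, and they place the D23-D29 cells in the early culture stages. The names inside the tables were followed, so every statement on culture or embryo rests on them. Because no culture or animal is named, each group is 1 sample, the SD is the spread between its cells, and no test of a difference between groups was possible. Shares of cells are given with their exact 95% interval (Clopper-Pearson), which covers the counting error alone.

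Mesp1 encodes a basic helix-loop-helix transcription factor that is switched on briefly as mesoderm forms at the primitive streak, and its descendants build most of the heart. Flk-1 (Kdr) encodes a receptor for vascular endothelial growth factor, first present in mesoderm with cardiac and vascular potential and later characteristic of endothelium. Pdgfra encodes a receptor for platelet-derived growth factor, present in early mesoderm and later in mesenchymal cells, fibroblasts among them. Cells positive for both receptors are commonly sorted from ES cell cultures as cardiac precursors.

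The sequence before a start of each gene is shown because all 3 genes were found together in some single cells, 7 of the 192 distinct cells. RefSeq (GRCm38.p6) gave these 250 bases for all 3 genes, on the strand of the gene; capitals mark GATA (or TATC, its reverse complement), the core bound by GATA factors, and CANNTG, the E-box bound by basic helix-loop-helix factors such as Mesp1.
Mesp1, chr7:79793591-79793840, minus strand: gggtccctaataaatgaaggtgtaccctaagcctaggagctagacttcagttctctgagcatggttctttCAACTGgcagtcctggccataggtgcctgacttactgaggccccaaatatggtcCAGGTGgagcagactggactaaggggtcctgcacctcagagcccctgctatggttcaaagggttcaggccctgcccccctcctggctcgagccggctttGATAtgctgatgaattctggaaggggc
Flk-1 (Kdr), chr5:75978456-75978705, minus strand: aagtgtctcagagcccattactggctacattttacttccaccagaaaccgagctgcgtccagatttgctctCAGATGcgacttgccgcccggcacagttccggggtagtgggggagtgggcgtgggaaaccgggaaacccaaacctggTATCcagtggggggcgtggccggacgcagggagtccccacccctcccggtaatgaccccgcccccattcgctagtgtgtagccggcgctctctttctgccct
Pdgfra, chr5:75152001-75152250, plus strand: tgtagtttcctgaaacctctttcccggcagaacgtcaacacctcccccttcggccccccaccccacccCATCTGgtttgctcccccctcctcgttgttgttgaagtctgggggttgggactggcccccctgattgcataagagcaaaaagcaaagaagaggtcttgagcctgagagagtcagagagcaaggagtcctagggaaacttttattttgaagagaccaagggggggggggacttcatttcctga
The Mesp1 window lies outside the annotated gene, whereas the annotated spans of Kdr and Pdgfra extend beyond their windows. The Mesp1 window held 2 E-box matches and 1 GATA match, the Flk-1 window 1 of each, and the Pdgfra window 1 E-box match and 0 GATA matches. These are common letters: of 32851 promoter windows of this length, searched on both strands, 66.2% held CANNTG and 53.6% held GATA. The files do not measure binding at these windows. Pdgfra and Kdr are neighbours on chromosome 5, with Kit as the 1 protein-coding gene annotated between them, and Mesp1 is on chromosome 7.

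Expression is given as 25 minus the quantification cycle (Ct), in cycles. A cycle corresponds to a doubling of template if amplification is complete, and a value of 0 means no signal. Levels of different assays are not compared, since their efficiencies are not given. Mesp1 was detected in 8 of the 192 distinct cells, at 0.86 to 5.91 cycles. Flk-1 was detected in 63 cells, at 0.42 to 10.95 cycles with a median of 5.80. Pdgfra was detected in 60 cells, at 4.21 to 10.58 cycles with a median of 7.21. No Pdgfra value lay between 0 and 4.21 cycles, so cells were either at the limit or well above it, while single Flk-1 and Mesp1 values lay under 1 cycle. The plot of all cells shows these levels in the 20 groups.

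**Figure D1:**
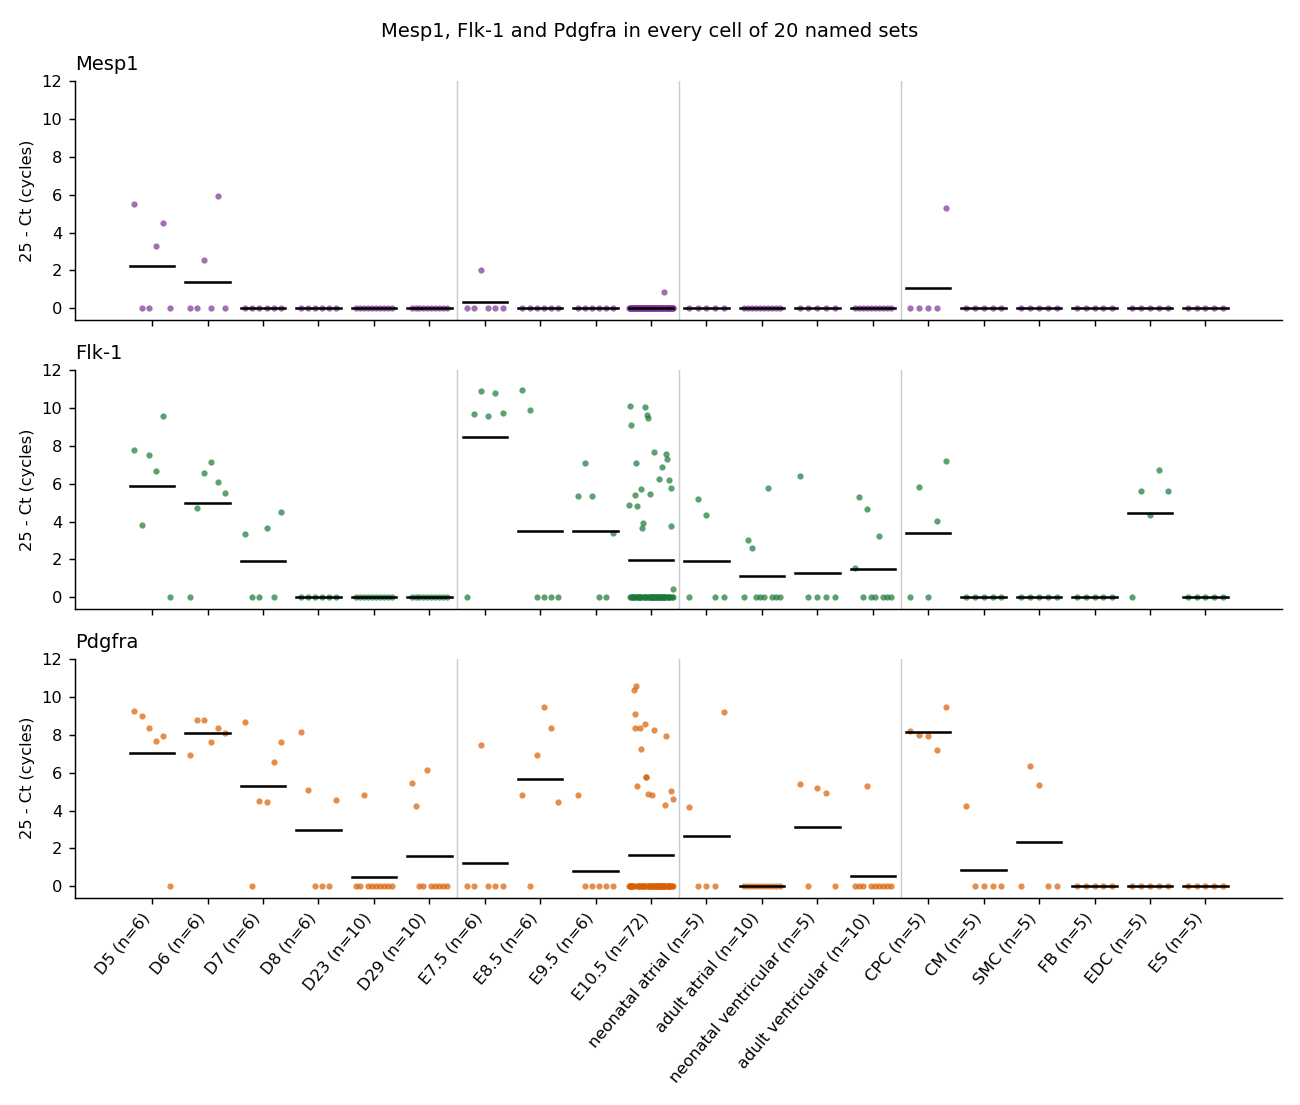
Expression of Mesp1, Flk-1 and Pdgfra (25 minus Ct, in cycles; 0 is no signal) in every cell of the 20 named groups, with 1 point per cell and a black line at the group mean. Mesp1 is confined to D5, D6, 1 cell of E7.5, 1 of E10.5 and 1 CPC cell, whereas Flk-1 and Pdgfra appear in 13 and 16 groups.

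In the cultures Mesp1 was last detected on D6 and Flk-1 on D7, while Pdgfra was still present on D8 and in a few cells on D23 and D29. By mean in cycles, Mesp1 and Flk-1 were both first at or under 50% of their highest mean on D7, and Pdgfra on D8. Cycles count doublings, so this is not a 50% fall in template, and it does not order the losses between assays. D7 minus D6 was -3.09 cycles for Flk-1 and -2.80 for Pdgfra. Mesp1 read 5.53, 0, 0, 3.29, 4.51 and 0 in the 6 cells of D5 (2.22 ± 2.53 cycles, SD, n = 6). On D6 it read 0, 0, 2.54, 0, 5.91 and 0 (1.41 ± 2.43 cycles, SD, n = 6). All cells of D7, D8, D23 and D29 were at 0 for Mesp1. The transcription factor was thus found in 5 cells of the first 2 days only, and 0 of 6 cells still allows a share of up to 45.9% on D7 and on D8.

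Flk-1 read 7.79, 3.83, 7.51, 6.68, 9.55 and 0 in the cells of D5 (5.89 ± 3.44 cycles, SD, n = 6). On D6 it read 0, 4.70, 6.56, 7.13, 6.07 and 5.52 (4.999 ± 2.59 cycles, SD, n = 6). On D7 it read 3.33, 0, 0, 3.65, 0 and 4.50 (1.91 ± 2.13 cycles, SD, n = 6). The vascular receptor was therefore found in 5 of 6 cells on each of the first 2 days and in 3 of 6 on D7. The 3 positive cells of D7 lay below every positive cell of D6, though 1 D5 cell was as low. Flk-1 was at 0 in all 6 cells of D8 and in all 20 cells of D23 and D29, where 0 of 20 allows a share of up to 16.8%.

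Pdgfra read 9.26, 8.97, 8.34, 7.64, 7.94 and 0 on D5 (7.02 ± 3.49 cycles, SD, n = 6). All 6 cells of D6 had it, at 6.92, 8.78, 8.80, 7.63, 8.33 and 8.10 (8.09 ± 0.72 cycles, SD, n = 6). On D7 it read 8.67, 0, 4.49, 4.42, 6.57 and 7.61 (5.29 ± 3.09 cycles, SD, n = 6). The positive cells thus sat in a narrow band through D6 and spread downward on D7. On D8 it read 8.17, 5.11, 0, 0, 0 and 4.57 (2.97 ± 3.48 cycles, SD, n = 6). One cell of D23 (4.83) and 3 cells of D29 (5.43, 4.26 and 6.15) still had it, and these 4 cells lay below the D5 and D6 positives.

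From D5 to D8 the mean was lower by 2.22 cycles for Mesp1, 5.89 for Flk-1 and 4.05 for Pdgfra. All 3 members were thus at least 1 cycle lower, a size that 26.2% of the 42 assays reached in that direction. Actb, the housekeeping assay, was also 5.57 cycles lower (12.66 ± 0.46 on D5 against 7.09 ± 1.59 on D8, SD, n = 6 each), and its part in the result was not tested. Each cell was also centred on Actb, with undetected values set to the lowest centred value of all assays in both groups. The difference was then -3.57 cycles for Flk-1, -0.42 for Pdgfra and -0.85 for Mesp1, so that Flk-1 alone among the 3 stayed past 1 cycle. The number of assays detected per cell moved the other way, from 14.67 ± 1.21 on D5 to 25.67 ± 4.97 on D8. All 10 contractile assays were at least 1 cycle higher on D8 (median difference 7.76 cycles, against 1.15 over all 42 assays), and Vim and Fn1, mesenchymal genes, were both lower. Between the D5-D8 and the D23-D29 cells, Flk-1 was 3.20 cycles lower, Pdgfra 4.81 cycles lower and Mesp1 0.91 cycles lower, where 33.3% of the assays were lower by 1 cycle or more and Actb by 4.15 cycles.

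**Figure D2:**
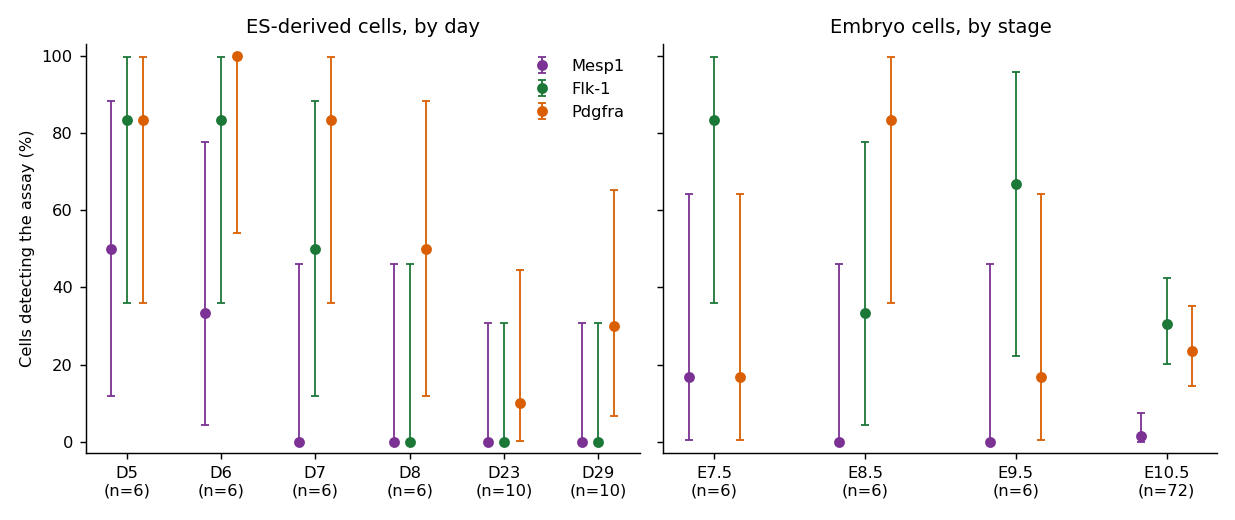
Share of cells (%) detecting Mesp1, Flk-1 and Pdgfra by culture day and embryonic stage; points are shares and bars exact Clopper-Pearson 95% intervals. Mesp1 reaches 0 on D7, Flk-1 on D8 and Pdgfra remains at 50% on D8, while in the embryo Pdgfra peaks at E8.5; with 6 cells the intervals overlap between most neighbouring groups.

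In the embryo cells the receptors followed another order. Flk-1 was high at E7.5 when Pdgfra was nearly absent, and Pdgfra was highest at E8.5. Mesp1 was found at E7.5 in 1 of 6 cells, at 2.05 cycles, and in 0 of 6 cells at E8.5 and at E9.5. That single Mesp1 cell also had the E7.5 group's highest Flk-1 level and its 1 Pdgfra signal.

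Flk-1 read 0, 9.68, 10.91, 9.57, 10.78 and 9.75 at E7.5 (8.45 ± 4.18 cycles, SD, n = 6). At E8.5 it read 10.95, 9.90, 0, 0, 0 and 0 (3.48 ± 5.39 cycles, SD, n = 6). The lower mean at E8.5 came from fewer positive cells, since both positive cells were as high as those of E7.5. At E9.5 it read 5.33, 7.07, 5.33, 0, 0 and 3.40 (3.52 ± 2.96 cycles, SD, n = 6), and the 6 E10.5 cells of the same table read 5.79, 3.78, 6.21, 0, 0 and 0. In this table each positive cell of E9.5 and E10.5 lay below each positive cell of E7.5 and E8.5, but the separate E10.5 table held cells at 10.08, 10.02 and 9.61. The mean was 4.97 cycles lower at E8.5 than at E7.5 and 5.82 cycles lower at E10.5 than at E7.5, sizes reached in that direction by 14.3% and 21.4% of the assays. Actb differed by -0.22 cycles in the first comparison and by -4.80 in the second, and its part in the second was not tested.

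Pdgfra was at 0 in 5 cells of E7.5 and at 7.48 in 1 cell. At E8.5 it read 4.84, 0, 6.95, 9.46, 8.35 and 4.47 (5.68 ± 3.39 cycles, SD, n = 6). One of 6 cells had it at E9.5 (4.83) and 1 of 6 at E10.5 (5.05). The E8.5 mean was 4.43 cycles above that of E7.5, and 52.4% of the 42 assays were at least 1 cycle higher in this comparison. With Actb centring the difference was 4.44 cycles. Between E7.5 and E10.5 the Pdgfra mean differed by -0.41 cycles.

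The earliest culture and embryo groups also differed from each other in the receptors. E7.5 minus D5, the means differed by -5.78 cycles for Pdgfra, -1.88 for Mesp1 and 2.56 for Flk-1. In this comparison 28.6% of the assays were lower and 19% higher by at least 1 cycle, and all 3 endothelial assays (Cdh5, Pecam1 and Vwf, a junction protein, a surface protein and a secreted clotting factor of endothelium) were higher. The D5 cells with Flk-1 read 3.83 to 9.55 cycles and the E7.5 cells with Flk-1 read 9.57 to 10.91, so the groups overlap only through a cell at 0 in each. Actb was 1.16 cycles lower at E7.5.

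The 72 cells of the separate E10.5 table gave 22 Flk-1 cells (30.6%, 95% interval 20.2 to 42.5%) and 17 Pdgfra cells (23.6%, 14.4 to 35.1%). Flk-1 ranged up to 10.08 cycles with a median of 0 and a mean of 1.96 ± 3.25 (SD, n = 72). Pdgfra ranged up to 10.58 cycles with a median of 0 and a mean of 1.66 ± 3.16 (SD, n = 72). Mesp1 was seen in 1 cell at 0.86 cycles, close to the detection limit, in a cell with all 10 contractile assays and neither receptor. Of these 72 cells, 6 are the E10.5 cells of the stage table deposited again, and they were counted once over all cells.

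Each Flk-1 cell of the D5 to D8 cultures also had Pdgfra, whereas in the embryo both receptors met in a minority of the Flk-1 cells. All 13 Flk-1 cells of D5 to D8 also had Pdgfra (95% interval 75.3 to 100%), 6 further cells had Pdgfra alone, 5 had neither, and no cell had Flk-1 alone. Pdgfra was common on these days, in 19 of 24 cells (79.2%), a share that lies inside that interval, and in 6 of the 11 cells without Flk-1. All 5 Mesp1 cells of these days had both receptors. They were cells of D5 and D6, where 5 of 6 cells on each day had both. At E7.5 to E9.5 there were 11 Flk-1 cells and 7 Pdgfra cells, of which 3 were shared, 27.3% of the Flk-1 cells and 42.9% of the Pdgfra cells, and 4 of the 7 cells without Flk-1 had Pdgfra. In the 72 E10.5 cells 6 were shared, 27.3% of the Flk-1 cells and 35.3% of the Pdgfra cells, and 39 cells had neither receptor. Pdgfra was found in 11 of the 50 cells without Flk-1 and in 23.6% of all 72, so Flk-1 cells of E10.5 had it about as often as the rest. Over all distinct cells, 7 of the 8 Mesp1 cells had both receptors, and 27 of 63 Flk-1 cells also had Pdgfra. These shares come from different groups and are not compared, since 5 of the 8 Mesp1 cells are from D5 and D6. The plot of Flk-1 against Pdgfra shows the filled upper right of the culture panel and the cells along both axes in the embryo panels.

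**Figure D3:**
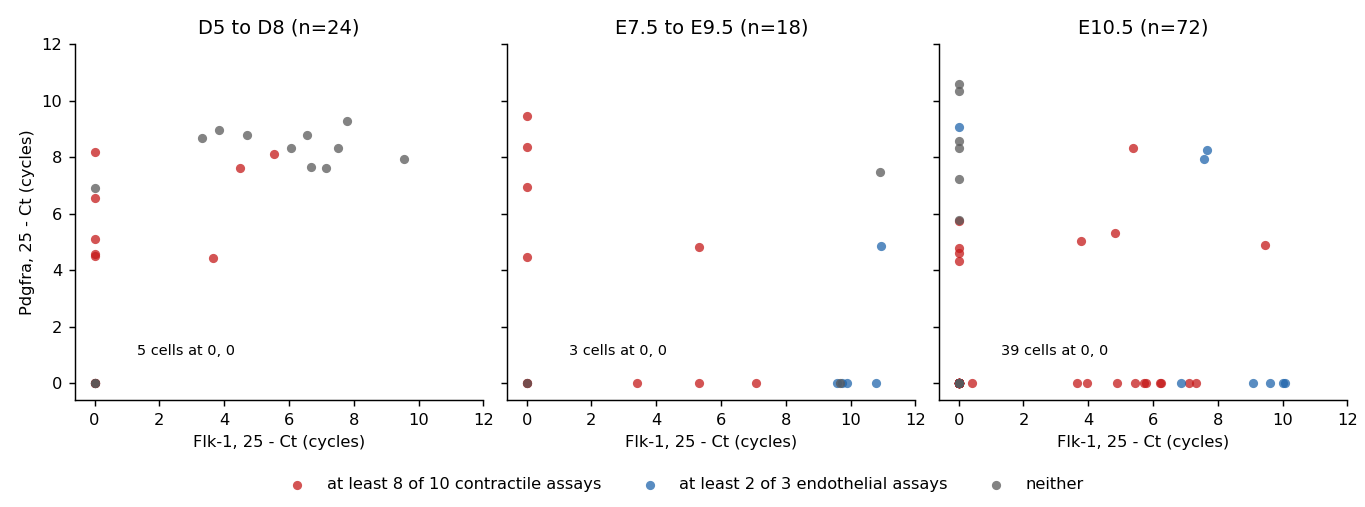
Flk-1 against Pdgfra (25 minus Ct, in cycles) in single cells of D5 to D8, E7.5 to E9.5 and E10.5; colours give cells with at least 8 of 10 contractile assays, with at least 2 of 3 endothelial assays, or with neither. In the culture panel every Flk-1 cell also has Pdgfra (13 of 13), while in the embryo panels 8 of 11 and 16 of 22 Flk-1 cells lie on the Flk-1 axis.

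One D5 cell lacked all 3 genes (0 for each) and differed from its group in another way. It had Cdh5 at 6.23 cycles, the 1 Cdh5 signal among the D5-D8 cells, beside Vim at 12.89 and Hand1, a cardiac transcription factor, at 6.77. Its Actb (12.39) was within the range of the other D5 cells. The E7.5 cell without Flk-1 also stood apart. It detected 10 assays, with no Vim signal where the other E7.5 cells had 7.98 to 10.39 cycles, and Actb at 12.29.

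Beside contractile genes, Pdgfra was found more widely than Flk-1 in the cultures. Contractile assays are the 10 for Tnnt2, Tnni3, Myh6, Myh7, Myl2 and Actn2, which encode sarcomere proteins. With at least 2 of them as the criterion, 21 cells of D5 to D8 qualified; 16 had Pdgfra, 10 Flk-1 and 4 Mesp1. With at least 8 of them, a stricter criterion chosen after the values were seen, 11 cells qualified; 8 had Pdgfra, 3 Flk-1 and 0 Mesp1. The 3 Flk-1 levels in these 11 cells were 5.52, 3.65 and 4.50. Among the 13 cells with fewer contractile assays, 11 had Pdgfra at 6.92 to 9.26 cycles and 10 had Flk-1. In 19 of the 20 cells of D23 and D29 at least 8 contractile assays were detected, and the 4 Pdgfra cells were among them.

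At E8.5 the receptors were found beside different assays, with 1 cell holding both. Both Flk-1 cells had Cdh5 (12.12 and 11.43), Pecam1 (8.05 and 6.75) and Kit-1 (7.42 and 7.08) with 2 and 1 contractile assays, and the first of them had Pdgfra at 4.84. Kit-2, the other Kit assay, was at 0 in both. The 4 other cells had 9 or 10 contractile assays, no Flk-1, no Cdh5 and Pdgfra at 4.47 to 9.46 cycles, and the one at 4.47 had Pecam1 at 4.02. At E9.5 all 6 cells, with or without Flk-1, had 10 contractile assays and none of the 3 endothelial assays, the 4 Flk-1 cells among them. Over E7.5 to E9.5, each of the 5 cells with at least 2 endothelial assays had Flk-1, at 9.57 to 10.95 cycles, and 1 of them had Pdgfra. Among the 10 cells with at least 8 contractile assays, 4 had Flk-1, at 3.40 to 7.07 cycles, and 5 had Pdgfra.

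At E10.5 the 72 cells fell into 55 with at least 8 contractile assays, 9 with at least 2 endothelial assays and 8 with neither, and no cell met both criteria. Flk-1 was found in 7 of the 9 endothelial-assay cells, in 15 of the 55 contractile cells and in 0 of the 8 others. The 7 levels were 6.87 to 10.08 cycles, against 0.42 to 9.46 with a median of 5.44 in the 15 contractile cells. Pdgfra was found in 6 of the 8 cells with neither criterion, in 3 of the 9 endothelial-assay cells and in 8 of the 55 contractile cells. Its levels were 10.35, 10.58, 8.34, 7.22, 8.58 and 5.77 in the first of these and 9.08, 8.26 and 7.93 in the second. In the 8 contractile cells they were 4.32 to 8.33 with a median of 4.97. The intervals for the shares were 39.99 to 97.2% for Flk-1 in the endothelial-assay cells, 16.1 to 40.96% in the contractile cells and up to 36.9% in the others. For Pdgfra they were 34.9 to 96.8% in the cells with neither criterion and 6.50 to 26.7% in the contractile cells.

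The mesenchymal assays were higher in the 8 cells with neither criterion and in the 9 endothelial-assay cells than in the contractile cells. Vim, an intermediate filament gene, was at 11.37 ± 1.20 cycles in the 8 cells (SD, n = 8), 12.07 ± 0.93 in the endothelial-assay cells (SD, n = 9) and 9.29 ± 0.96 in the contractile cells (SD, n = 55). Fn1, which encodes fibronectin, was at 9.15 ± 2.51, 10.22 ± 1.52 and 5.36 ± 2.29 cycles in the same order. Tnnt2-1 was at 7.71 ± 2.23 in the 8 cells against 12.47 ± 0.91 in the contractile cells, and it was detected in all 8. The 8 were mixed: 1 cell with 7 contractile assays and no Pdgfra had Tnnt2-1 at 12.80, within the range of the contractile cells. It had Vim at 8.78, Fn1 at 3.31 and Actb at 6.68. The others had Tnnt2-1 at 5.26 to 8.27. Nkx2.5-1 was found in 1 of the 8 and in 55 of 55 contractile cells. Of the smooth muscle assays, Sm22A was found in all 8 and in 53 of 55 contractile cells, Cnn1 in 2 and in 55 of 55, and Myh11 in 0 and in 2 of 55. Actb was 10.54 ± 1.68 cycles in these 8 cells, 10.38 ± 0.81 in the endothelial-assay cells and 7.54 ± 1.55 in the contractile cells, and its part in the receptor levels was not tested. Contractile counts were mostly at the ends of their range, with 12 cells at 0 to 4 and 5 cells at 5 to 7. The 2 highest Pdgfra cells had 7 contractile assays, just under the criterion, and with a criterion of 6 the cells with neither held 4 Pdgfra cells.

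**Figure D4:**
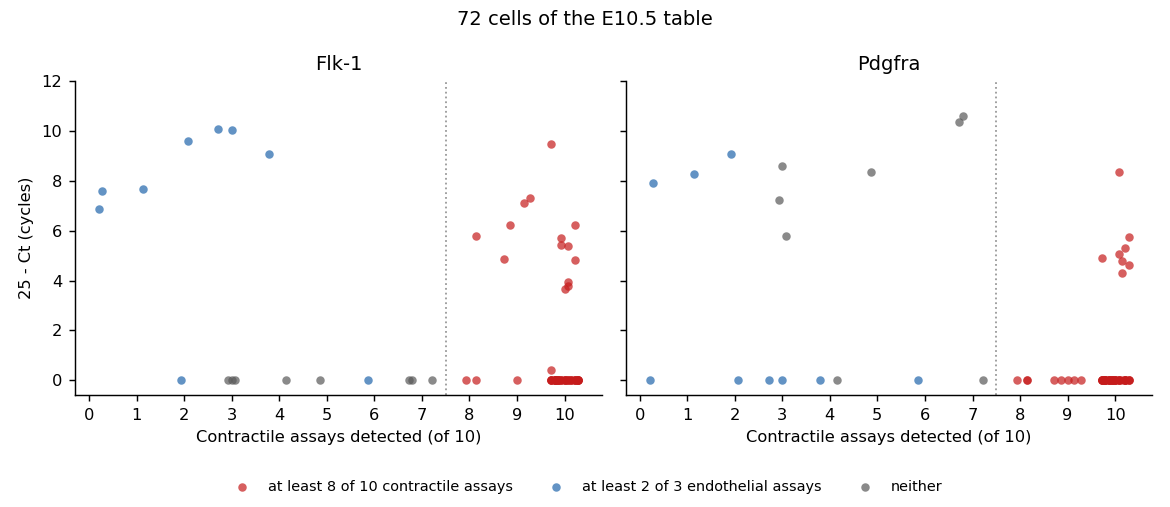
Flk-1 and Pdgfra (25 minus Ct, in cycles) in the 72 cells of the E10.5 table against the number of contractile assays detected, with small horizontal offsets; the dotted line marks the criterion of 8 and colours give the cell class. Flk-1 on the left of the line is found in endothelial-assay cells (7 cells, 6.87 to 10.08 cycles), whereas Pdgfra there is found in 6 cells with neither criterion and 3 endothelial-assay cells.

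Kit, which encodes the stem cell factor receptor and lies between Pdgfra and Kdr on the chromosome, was measured with 2 assays. At E10.5 Kit-1 was detected in 11 of 22 Flk-1 cells against 10 of 50 others, and Kit-2 in 9 of 22 against 21 of 50. Of the Pdgfra cells, 5 of 17 had Kit-1 against 16 of 55 others, and 11 of 17 had Kit-2 against 19 of 55. Kit-1 was at 4.52 ± 2.31 cycles in the endothelial-assay cells (SD, n = 9), which include 7 of the Flk-1 cells, and at 0.82 ± 1.70 in the contractile cells (SD, n = 55). Kit-2 was at 1.77 ± 1.78 and 1.11 ± 1.63 cycles in the same order. The 2 assays of Kit thus differed, and the gap between these classes was seen with Kit-1 and lay within the SD with Kit-2.

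Among the reference cells all 3 genes met only in CPC. Pdgfra was present in each of the 5 CPC cells, at 8.22, 7.99, 7.94, 7.20 and 9.47 (8.16 ± 0.83 cycles, SD, n = 5). Flk-1 read 0, 5.84, 0, 4.04 and 7.21 in the same cells, and Mesp1 was found in the fifth alone, at 5.27. That cell had the highest level of all 3 genes in its group. Hand1 was at 9.64 to 12.78 cycles in the 5 cells, which had at most 1 contractile assay.

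The other reference types held 1 of the receptors or none. EDC cells had Flk-1 at 0, 5.62, 4.35, 6.73 and 5.63 with no Pdgfra, and all 5 had Cdh5, Pecam1 and Vwf. SMC cells had no Flk-1 and Pdgfra in 2 of 5 (6.35 and 5.36). CM had Pdgfra in 1 of 5 cells (4.26), and that cell is a D29 cell deposited again. FB and ES cells were at 0 for all 3 genes, where 0 of 5 allows a share of up to 52.2%.

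Pdgfra was 8.16 cycles higher in CPC than in ES, FB and EDC, 7.31 higher than in CM and 5.82 higher than in SMC. The share of the 42 assays at least 1 cycle higher in CPC was 35.7% against ES, 40.5% against FB, 33.3% against EDC, 40.5% against CM and 33.3% against SMC. Flk-1 was 3.42 cycles higher in CPC than in ES, FB, CM and SMC and 1.05 lower than in EDC. Mesp1 was 1.05 cycles higher than in all 5 other types, through 1 cell. These comparisons share the CPC cells. Actb was 11.53 ± 0.69 in CPC (SD, n = 5) and 6.30 ± 0.56 in CM, the lowest of the reference types.

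Of the 30 heart cells, 10 had Flk-1, 6 had Pdgfra and 2 had both. Mesp1 was at 0 in all 30 cells, an upper limit of 11.6%. Flk-1 was detected in 2 of 5 neonatal atrial cells (5.19 and 4.36), 3 of 10 adult atrial cells (3.02, 2.61 and 5.80), 1 of 5 neonatal ventricular cells (6.40) and 4 of 10 adult ventricular cells (1.54, 5.32, 4.68 and 3.26). Pdgfra was detected in 2 of 5 neonatal atrial cells (4.21 and 9.19) and 3 of 5 neonatal ventricular cells (5.41, 5.20 and 4.92). In adult cells it was detected in 0 of 10 atrial and 1 of 10 ventricular cells (5.30).

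The adult mean of Pdgfra was 2.68 cycles lower than the neonatal mean in atrial cells and 2.58 lower in ventricular cells, where 35.7% and 16.7% of the assays were lower by at least 1 cycle. Flk-1 differed by -0.77 and 0.20 cycles. The neonatal groups of 5 overlap the adult groups in both genes, since cells at 0 occur in each. Vim was detected in all 5 cells of each neonatal group, in 0 of 10 adult atrial cells and in 3 of 10 adult ventricular cells. The neonatal atrial cell with Pdgfra at 9.19 had Vim at 13.80 and Fn1 at 11.43, both the highest of the 30 heart cells, and its part in the result was measured by leaving it out, which gave a difference of -1.05 cycles. At least 1 endothelial assay accompanied 3 of the 5 ventricular Flk-1 cells, 1 with Cdh5 and Pecam1 and 2 with Cdh5. It accompanied 0 of the 5 atrial Flk-1 cells. Heart cells without Flk-1 also had such signals: a neonatal ventricular cell had Vwf (3.70), a neonatal atrial cell Vwf (3.51) and an adult atrial cell Cdh5 (3.61). Only the cell with Cdh5 and Pecam1 met the minimum of 2 endothelial assays used above.

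The positive control of the atrial and ventricular tables stands 1 row lower than in the other tables for 40 of its values, so its Flk-1 and Pdgfra rows hold other assays' values. The row names were kept for the cells because Sln, an atrial gene whose row lies just below Pdgfra, was detected in 15 of 15 atrial and 0 of 15 ventricular cells. The positive control of the D5-D8, reference and E7.5-E10.5 tables gave 6.88 cycles for Mesp1, 13.74 for Flk-1 and 15.09 for Pdgfra. That of the D23-D29 table gave 9.49, 14.48 and 16.19, higher for each, although its cells were lower than those of D5-D8. All 6 negative controls were at 0. The separate E10.5 table held neither a positive nor a negative control.

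In the order of mean levels, Flk-1 was highest in E7.5, followed by D5, D6 and EDC, and Pdgfra in CPC, followed by D6, D5 and E8.5. Mesp1 was highest in D5, followed by D6, CPC and E7.5. Every gap between neighbours in these orders was smaller than the larger SD of the pair, so that no neighbouring groups with signal differ beyond the spread of their cells.

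The assays most like each member were sought by Pearson correlation, as a description. Over the means of the 20 groups, Mesp1 was most like Pdgfra (0.72), Hand1 (0.72), Actb (0.62) and Flk-1 (0.57). Pdgfra was most like Isl1-2 (0.76), an assay for a progenitor transcription factor, then Hand1 (0.68), Actb (0.56) and Vim (0.56). The other Isl1 assay, Isl1-1, was detected in fewer than 10 cells and was not ranked over group means. Over single cells, Isl1-2 was at 0.12 with Pdgfra in D5 to D8 and at -0.02 in E7.5 to E10.5, so its likeness was one of group means. Flk-1 was most like Actb (0.61), Fn1 (0.60), the calponin gene Cnn2 (0.57) and Cdh5 (0.54). The points share their cells and follow the Actb level of the groups. After Actb centring, which takes Actb itself out, 2 of the other 3 assays remained among the 4 most alike for Pdgfra, 1 for Flk-1 and 0 for Mesp1. This centring subtracted Actb from undetected values as well. Mesp1 was detected in 8 of 192 distinct cells, so its centred means mostly followed Actb. The count of 0 therefore does not bear on its likeness, and the other 2 counts are limited in the same way. By Spearman correlation 1 of the 4 assays remained for Pdgfra (Isl1-2), 3 for Mesp1 and 4 for Flk-1.

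Over the 24 cells of D5 to D8, Flk-1 ran with Actb (0.70), Pdgfra (0.68) and Fn1 (0.65) and lowest with Myh6-1 (-0.67). Mesp1 ran with Flk-1 (0.63), Actb (0.44) and Pou5f1 (0.44), and lowest with Myh6-1 (-0.51). Pdgfra ran with Flk-1 (0.68), Actb (0.56) and Sm22A (0.51), and lowest with Tnni3-2 (-0.56). Over the 24 cells of E7.5 to E10.5, Flk-1 ran with Fn1 (0.74), Cdh5 (0.67) and Kit-1 (0.60) and lowest with Actn2 (-0.76). The other Kit assay, Kit-2, was at -0.03 with Flk-1. Pdgfra had no correlation above 0.48 (Pou5f1), followed by Hcn4 (0.44) and Actb (0.34), with Kit-2 lowest (-0.34). These cells share days or stages, so the values follow the changes over time as well as differences among cells of a group.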

How the data were processed

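Per the labels' protocols, lysis and reverse transcription of sorted single cells took 1 step, followed by pre-amplification with TaqMan assays and reading on Fluidigm chips. The deposited values are Ct values of 42 assays, not relative to Actb and ending at 25; the threshold is not given in the sources used here, nor is any normalization or removal of cells. Of 212 columns, 12 are controls, and 8 of the 200 cells repeat another and were counted once in overall totals. Precision is limited by the 5 to 72 cells per group and by the detection limit, below which weak and absent signals read alike.

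A difference is that of group means over all cells, with undetected cells at 0, and is counted from 1 cycle. In centred differences, undetected values instead took the lowest centred value over all assays and cells of both groups. Centred differences of a member with many undetected cells therefore depend on that floor. With 1 sample per group nothing was tested. Named assays are the members, the marker lists and the 4 most correlated over group means, among assays detected in at least 10 cells. Also named are the 3 highest and 1 lowest over cells of the E7.5-E10.5 and D5-D8 tables, where assays detected in fewer cells were ranked too. Marker values of cells that stood apart were chosen after being seen. The members and lists were chosen with earlier results of these data known.

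Alternatives were Actb centring, centring on the median detected assay, a limit of Ct 23, detecting cells only (at least 3 per group), medians, a filter on cells (6 left out), other minimums of assays, Spearman correlation and every column. Added after the data were seen were all 72 E10.5 cells, minimums of 8, 6 and 10 contractile assays, and leaving out 1 neonatal atrial cell. The code for differences was tested on simulated cells in which every assay was detected. The handling of undetected values and the centring on the median detected assay were not part of that test. Python 3.11.15, pandas 2.3.3, numpy 2.4.6, scipy 1.17.1 and matplotlib 3.10.9 were used.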

Additional observations from a re-analysis of the deposited data

Results flagged for a closer look

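A single cell lay far from the other cells of its group in 13 of the 33 cases in which a member varied within a group of 4 to 10 cells; chance flags about 1 case in 20, but values at the detection limit make such gaps common here. The cells are not replicates of a condition. The lowest cell stood apart for Pdgfra in D5 (0, next 7.64), for Flk-1 in D6 (0, next 4.70) and for Flk-1 in E7.5 (0, next 9.57). The D5 cell is the one with Cdh5, and the E7.5 cell is the one without Vim. The highest cell stood apart, with every other cell at 0, for Mesp1 in E7.5 (2.05) and CPC (5.27), for Flk-1 in neonatal ventricular cells (6.40), and for Pdgfra in 6 groups. These were D23 (4.83), E7.5 (7.48), E9.5 (4.83), the 6 E10.5 cells of the stage table (5.05), adult ventricular cells (5.30) and CM (4.26). Mesp1 and Pdgfra of E7.5 were high in the same cell. Flk-1 in adult atrial cells was highest at 5.80, with the next cell at 3.02.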

How the results depend on the processing

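Of 295 values recomputed under an alternative, 258 stayed on their side of 1 cycle and within 1 SD between cells (counts within 1.5 times), 36 moved further and 1 difference of at least 1 cycle turned its direction. Differences under 1 cycle also turned: Pdgfra in E10.5 minus E7.5 was 0.35 centred on Actb and 0.41 with all 72 cells, and Flk-1 in adult minus neonatal ventricular cells was -0.07 centred on the median detected assay and -0.15 at Ct 23. Flk-1 in CPC minus EDC turned to 0.12 cycles over detecting cells only, and was -0.65 at a limit of Ct 23. At Ct 23, Pdgfra was 6.16 cycles higher in CPC than in FB, EDC and ES and 5.71 higher than in CM, Mesp1 was 0.65 higher in CPC than in ES, and the 1 Mesp1 cell of E10.5 was lost (0 cells with contractile assays). Centred on Actb, the D8 minus D5 difference was -0.85 for Mesp1 and -0.42 for Pdgfra, E7.5 minus D5 was -0.88 for Mesp1, CPC minus ES was 0.93 for Mesp1, and adult minus neonatal atrial was -1.003 for Flk-1 (-1.39 centred on the median detected assay). Centred on the median detected assay, D23-D29 minus D5-D8 was -1.11 for Mesp1. Over medians, Pdgfra in adult minus neonatal cells was 0 (atrial) and -4.92 (ventricular), and Mesp1 in CPC minus ES was 0. The cell filter moved Pdgfra in E10.5 minus E7.5 to -1.03. Leaving out 1 neonatal atrial cell moved Pdgfra to -1.05 and Flk-1 to -1.25.

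Counts beside other assays depended on the minimum. With at least 3 contractile assays, 2 Mesp1 and 6 Flk-1 cells of D5 to D8 and 0 Mesp1 cells of E7.5 to E9.5 remained; with at least 8, 0, 3 and 8 cells of D5 to D8 had Mesp1, Flk-1 and Pdgfra, 0 of E7.5 to E9.5 had Mesp1, and 8 of E10.5 had Pdgfra. With all 3 endothelial assays, 3 Flk-1 and 0 Pdgfra cells of E7.5 to E9.5 remained; with at least 1, 2 cells of E7.5 to E9.5 and 10 of E10.5 had Pdgfra. With all 10 contractile assays required, 5 Flk-1 cells of E10.5 met neither criterion. The days of last detection and the counts of cells with both receptors kept their values within 1.5 times under Ct 23 and the cell filter. No paired analysis was possible because no result comes from a test, and no replicate was left out because each group is 1 sample.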
